A study of Homo sapiens with 6 samples.

Results

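IGIP, CLPS, APOBEC2 and AGBL2 were among the genes with the largest fall in K562 cells carrying an shRNA against lncRNA-IUR-5. They were chosen by that fall in these same libraries, so their fold changes describe how they were picked and are given with no test. The 4 genes take up 6 of the 109018 rows of the deposited table, in which each row is 1 RefSeq protein accession. Of these 6 rows, 4 reached the mean level of 1 RPKM set for testing, as did 38204 rows of the whole table, and the other 2 rows, both of CLPS, held no read in any library. RPKM is the number of reads scaled by row length and by the total reads of the library.

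K562 is a human cell line from a chronic myeloid leukaemia that carries the BCR-ABL fusion. All cells were K562 cells infected with the lentiviral vector pSIH-H1-GFP and selected as stable lines. In 3 libraries the vector carried an shRNA against luciferase (sh-luc), and in the other 3 the hairpin was directed at lncRNA-IUR-5 (named sh-IUR-5 here), an RNA that the sample labels call lncRNA-IIRX. Per the study's methods, RNA came from 3 independent groups of cells of each kind, while in the library names of both groups the 2nd and 3rd share a series number that library 1 does not. With 1 hairpin against lncRNA-IUR-5 in the sequenced cells, the loss of the RNA and any other effect of the hairpin cannot be told apart, and the level of lncRNA-IUR-5 itself was not analysed here because the rows are proteins.

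The 4 genes have no shared pathway. IGIP encodes a small secreted protein that promotes the production of IgA by B cells, and its gene has no intron. CLPS encodes colipase, the pancreatic cofactor that holds lipase on the surface of dietary fat in the presence of bile salts. APOBEC2 belongs to the AID/APOBEC family of zinc-dependent deaminases and is known for its expression in heart and skeletal muscle. AGBL2 encodes a cytosolic carboxypeptidase that trims amino acids from the carboxyl end of tubulin, a modification best known from cilia and other long-lived microtubules. In erythroleukaemic cells none of the 4 has a well-known role.

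The pathway cells of these genes were not visible in the libraries. All 10 K562 and erythroid markers examined, among them the fetal and embryonic globins, KLF1 and GATA1, had a mean of at least 1 RPKM. None of the 9 pancreatic acinar, 7 skeletal muscle, 5 B cell, 4 dendritic cell or 5 multiciliated cell markers did. The pancreatic markers summed to 0.640 to 1.07 RPKM in sh-luc and 0.606 to 1.01 RPKM in sh-IUR-5, with PRSS1, CPA1, CTRB1, CTRC, CELA3A and PNLIP at 0 reads in every library. The skeletal muscle markers summed to 0.713 to 0.944 RPKM and 0.699 to 1.21 RPKM, with MYOD1, MYOG, MYH2, TNNT3 and MB at 0. The B cell markers summed to 0.309 to 0.681 and 0.204 to 0.403 RPKM, with MS4A1, PAX5 and CD79B at 0. All 4 dendritic cell markers were at 0, and the multiciliated markers, none of them at 0, summed to 0.539 to 1.06 and 0.891 to 1.57 RPKM. The erythroid markers summed to 20163 to 22535 RPKM in sh-luc and 16013 to 16705 RPKM in sh-IUR-5, so these sums did not overlap.

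The main observation lies in coding exons of CLPS and AGBL2. The CLPS row with reads, NP_001239526.1, has the coding length of the transcript CLPS-203, and 42 of its coding bases, which form its first coding exon, occur in no other CLPS transcript. Coding exon 5 of AGBL2-202 ends in 42 bases that differ from the CLPS exon at 5 positions. ASCC1 and CCDC198, the other genes with the fewest differences, hold the stretch at the end of a coding exon too, with 2 mismatches each. The bases are those of an Alu element read on its antisense strand. Alu elements are short interspersed repeats of primate genomes, found mostly in introns and between genes, and parts of them have been taken up as exons in some genes.

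IGIP was counted on 1 row, NP_001007190.1, of 162 bases. The reads were 89, 87 and 62 in sh-luc libraries 1, 2 and 3 and 54, 51 and 30 in sh-IUR-5 libraries 1, 2 and 3. As levels these were 23.6, 25.2 and 18.2 RPKM in sh-luc and 10.6, 12.9 and 7.48 RPKM in sh-IUR-5. Library 3 was the lowest of its group in both, and the groups did not overlap. The mean was 22.3 ± 3.65 RPKM (SD, n = 3) in sh-luc and 10.3 ± 2.74 RPKM (SD, n = 3) in sh-IUR-5, a ratio of 2.16, and the log2 fold change after TMM scaling was -1.31 (SE 0.20). The row length is the coding sequence with its stop codon, a small part of the 3456 bases of the unspliced transcript IGIP-201 (hg38, chr5:140125937-140129392, plus strand).

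CLPS was counted on 3 rows that did not agree. NP_001239526.1, of 297 bases, held 145, 115 and 131 reads in sh-luc and 97, 66 and 66 reads in sh-IUR-5, or 20.9, 18.2 and 21.0 RPKM against 10.4, 9.14 and 8.98 RPKM. The 3 sh-IUR-5 levels lay well below the 3 sh-luc levels, with 7.78 RPKM between the nearest libraries. The mean fell from 20.02 ± 1.62 RPKM (SD, n = 3) to 9.50 ± 0.764 RPKM (SD, n = 3), and the log2 fold change was -1.26 (SE 0.13). NP_001823.1, of 339 bases, which is the length of the main transcript CLPS-201, and NP_001239527.1, of 216 bases, the length of CLPS-202, were at 0 reads in all 6 libraries. Besides the repeat exon, the coding sequence of CLPS-203 is made of 252 bases that also belong to a row at 0. Of 6193 genes with more than 1 row, the row with the most reads being tested, 105 (1.70%) had any row at 0 reads in every library. The pattern of CLPS is thus rare in the table. Where within the row the reads of NP_001239526.1 lay is not recorded, and the counting rule for reads that match several places is not given in the sources used here.

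APOBEC2 had the fewest reads of the 4 genes. Its row NP_006780.1, of 675 bases, held 52, 39 and 54 reads in sh-luc and 39, 15 and 26 reads in sh-IUR-5. As levels these were 3.30, 2.71 and 3.81 RPKM against 1.84, 0.914 and 1.56 RPKM. The groups did not overlap, but the highest sh-IUR-5 library and the lowest sh-luc library were only 0.874 RPKM apart. The 15 reads of sh-IUR-5 library 2 have an exact Poisson 95% interval of 8.40 to 24.7 reads and the 39 reads of sh-luc library 2 one of 27.7 to 53.3, which covers counting error only. The mean fell from 3.27 ± 0.549 RPKM (SD, n = 3) to 1.44 ± 0.473 RPKM (SD, n = 3), and the log2 fold change was -1.35 (SE 0.23).

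AGBL2 had the most reads and the smallest standard error. Its row NP_079059.2, of 2709 bases, the coding length of AGBL2-202, held 334, 273 and 249 reads in sh-luc and 194, 143 and 147 reads in sh-IUR-5. The levels were 5.29, 4.73 and 4.37 RPKM in sh-luc and 2.27, 2.17 and 2.19 RPKM in sh-IUR-5. Every sh-IUR-5 library lay at least 2.10 RPKM below every sh-luc library. The mean fell from 4.79 ± 0.461 RPKM (SD, n = 3) to 2.21 ± 0.0551 RPKM (SD, n = 3), and the log2 fold change was -1.31 (SE 0.11).

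**Figure D1:**
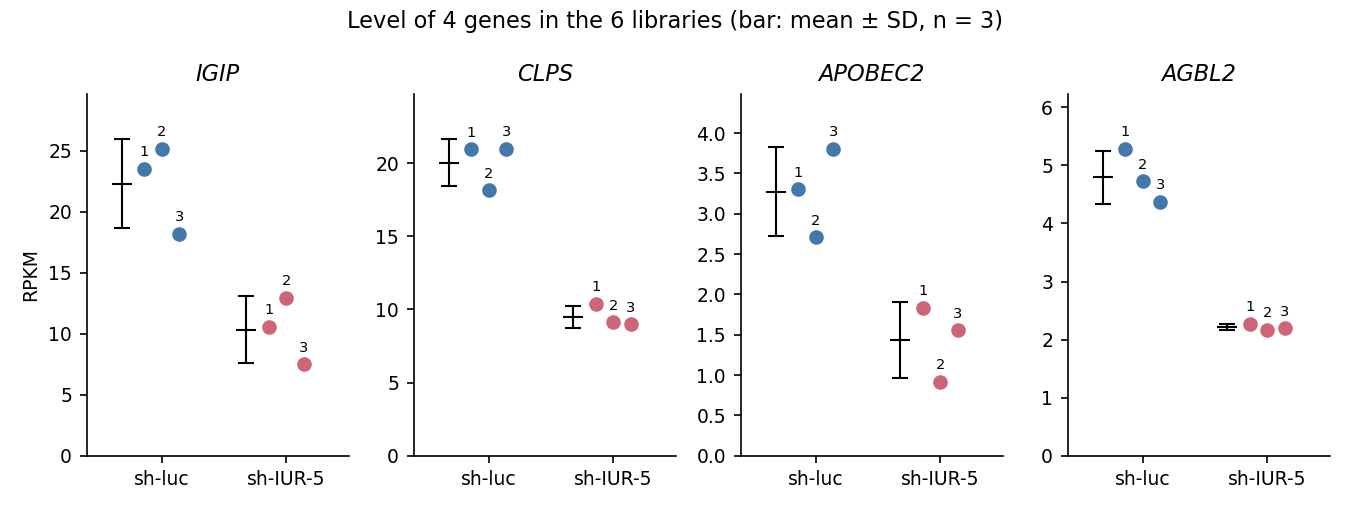
Level of IGIP, CLPS (row NP_001239526.1), APOBEC2 and AGBL2 in RPKM in each of the 3 sh-luc (blue) and 3 sh-IUR-5 (red) libraries, with the library number beside each point and the mean ± SD to its left; each panel has its own axis from 0. In all 4 panels the sh-IUR-5 points lie below the sh-luc points, closest together in APOBEC2.

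The levels of the 4 genes were compared per length. The sh-luc level enters the fall by which the genes were chosen, so these values are not free of that choice. In RPKM, IGIP and the CLPS row with reads stood at similar levels in sh-luc, 22.3 and 20.02 RPKM, and their ranges overlapped. The other CLPS rows held no read, so this value is of that row only and not a level of the whole gene. AGBL2 at 4.79 RPKM lay above APOBEC2 at 3.27 RPKM without overlap, since its lowest sh-luc library had 4.37 RPKM and the highest of APOBEC2 had 3.81 RPKM. The spread among sh-luc libraries was 16.4% of the mean for IGIP, 8.08% for CLPS, 16.8% for APOBEC2 and 9.62% for AGBL2. Counting error alone gives 11.2%, 8.76%, 14.4% and 5.92% at the mean reads of these rows. In sh-IUR-5 the spread was 26.5%, 8.05%, 32.9% and 2.49%, against 14.9%, 11.4%, 19.4% and 7.87% from counting.

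All 4 rows with reads had their sh-IUR-5 levels below their sh-luc levels in every library, which is how they were picked. Over all tested rows the share with this pattern was 11.4%, and 18.1% of tested rows were lower with an edgeR adjusted p under 0.05. The lowest log2 fold change over all tested rows, with or without a symbol, was -1.94, beyond those of the 4 genes. Genes with a symbol were ranked by their row with the most reads, where that row was tested. Among these 8873 genes, APOBEC2 held place 3 of the falls, AGBL2 place 4, IGIP place 5 and CLPS place 9. Next above APOBEC2 was LOC100652777 (log2 fold change -1.37), itself below only LOC107987433 (-1.61). Between IGIP and CLPS stood CARD18 (-1.30), PRG2 (-1.30) and BGLAP (-1.28), which are not in the group, and the next below CLPS was SHLD1 (-1.26). From LOC100652777 to SHLD1, neighbours in this order differ by less than their standard errors, SHLD1 having an SE of 0.18 and CARD18 one of 0.28.

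Library totals ran from 21023739 to 23320543 reads in sh-luc and from 24325122 to 31481109 reads in sh-IUR-5, with replicate 1 the deepest in both. The choice of scaling shifts every fold change here. The median log2 fold change over tested rows was 0.005 after TMM scaling and 0.20 with total reads only, and the share of higher rows among all calls went from 51.4% to 80.1%. With total reads only, the log2 fold changes were -1.11 for IGIP, -1.07 for CLPS, -1.16 for APOBEC2 and -1.12 for AGBL2, and the RPKM ratios of 2.11 to 2.28 are on this scale. Of the reference genes, ACTB was at 690 ± 43.8 RPKM and 801 ± 15.5 RPKM (SD, n = 3), and GAPDH at 941 ± 44.5 and 957 ± 5.88 RPKM (SD, n = 3). Neither passed the threshold after TMM scaling, with edgeR adjusted p = 0.821 and 0.0508.

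The repeat in the CLPS and AGBL2 rows has a very large number of copies. The 42 bases of the CLPS exon occur at 4 places of hg38 without a mismatch, at 336 with 1, at 7177 with 2 and at 107236 with up to 4. The 12 windows of 31 bases in the exon stand at a median of 215 places, and the most frequent at 370. By contrast, all 246 such windows of the coding exons of CLPS-201 stand at 1 place, and so do the 129 of IGIP and the 612 of APOBEC2. In AGBL2, 33 of 2166 windows (1.52%) stand at more than 1 place, all of them in coding exon 5 between coding bases 311 and 400, and the most frequent at 759 places. Of the 4 genes, the repeat is thus present in the counted sequence of CLPS and AGBL2, and IGIP and APOBEC2 hold no stretch closer than 23 and 21 mismatches. Over the whole gene, introns included, up to 8 mismatches were found at 80 places in AGBL2, 1.43 per kilobase, at 1 place each in CLPS and APOBEC2 and at none in IGIP.

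Other rows with this sequence were lower in sh-IUR-5 as well. This set was chosen after the CLPS exon had been seen, by sequence and not by level, and it gets no test of its own. A coding sequence could be joined by symbol and coding length to 18406 of the tested rows (48.2%). A copy of the exon with up to 8 mismatches of 42, in either orientation, was found in 96 of them, from 71 genes. Of these, 92 rows were lower with an edgeR adjusted p under 0.05, 0 were higher and 4 passed in neither direction. Without CLPS and AGBL2, 90 of 94 rows were lower, 86 had all sh-IUR-5 levels below all sh-luc levels, and the median log2 fold change was -0.85. The 18310 joined rows without a copy had a median of 0.02, with 3405 lower and 3927 higher. Of those without a copy, 11.1% had all sh-IUR-5 levels below all sh-luc levels. The 96 rows with a copy had a median level of 33.4 RPKM against 5.45 RPKM without one, so these counts are not matched on level. The repeat is shared, so its reads may be counted on several of the rows with a copy or divided among them. The rows with a copy are thus not independent of each other.

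CLPS and AGBL2 have the lowest log2 fold changes of the set, which their choice by a large fall fixed, and the next row was UPK1A at -1.11. ASCC1 and CCDC198 were at -0.84 (SE 0.09) and -0.88 (SE 0.12). ASCC1 fell from 35.4 to 22.7 RPKM and CCDC198 from 12.1 to 7.57 RPKM. The 13 rows with up to 4 mismatches were all lower, with a median of -0.84, and so were the 16 rows that hold the copy only in reverse orientation, with a median of -0.87, but these came from 4 genes, and 13 of them were rows of FBLIM1. Where only the row of a gene with the most reads was kept, 63 rows held a copy, of which 62 were lower, with a median of -0.85. The 4 rows past the threshold in neither direction were those of DLGAP5 (-0.03), RHOA (0.04), DNMT1 (0.05) and CHMP2B (0.34), with 7 or 8 mismatches each. In 38 of the 67 genes with the copy in the same orientation, it ended at the last base of a coding exon, as in AGBL2. CLPS is bound to be among them, since its whole exon was the sequence sought.

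**Figure D2:**
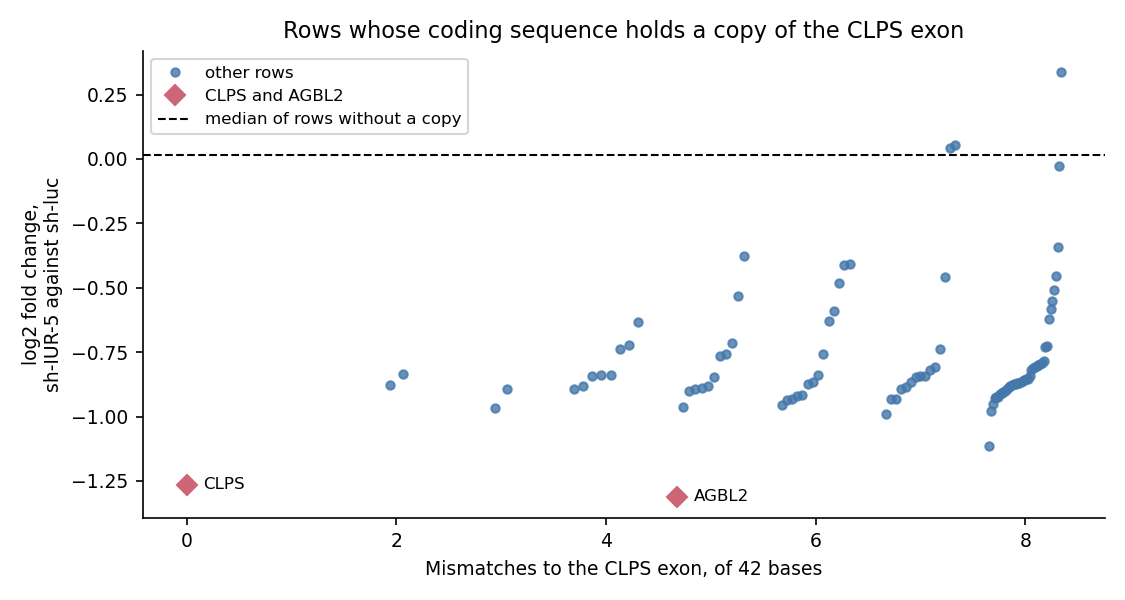
Log2 fold change of sh-IUR-5 against sh-luc for 96 tested rows, each point a row, by the number of mismatches between its closest coding stretch and the 42-base CLPS exon (points are spread sideways within a number), with CLPS and AGBL2 as red diamonds. Most points from 2 to 8 mismatches gather near -0.85, below the dashed median of 0.02 of rows without a copy, with a few at 7 and 8 mismatches up to 0.34, and CLPS, the only row at 0, and AGBL2 were chosen for their fall.

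The share of each library that fell on rows with a copy differed between the groups. Rows with a copy, 104 in all with those under the level for testing, took 0.944%, 0.860% and 0.852% of the reads of sh-luc libraries 1, 2 and 3. In sh-IUR-5 libraries 1, 2 and 3 they took 0.557%, 0.571% and 0.582%. The 3 shares of sh-IUR-5 were all below the lowest of sh-luc. The part of this in the falls of CLPS and AGBL2 was not tested, because the table does not separate reads on the repeat from reads on the rest of a row. The counted sequences of IGIP and APOBEC2 hold no copy.

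**Figure D3:**
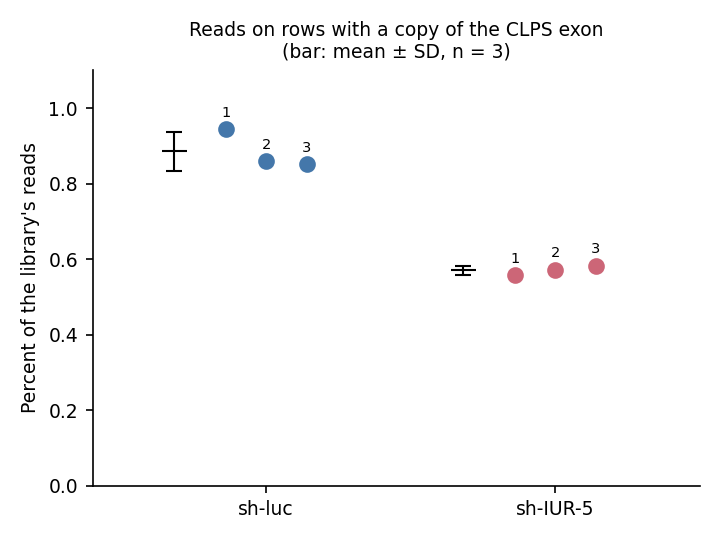
Percent of the reads of each library counted on the 104 rows whose coding sequence holds a copy of the CLPS exon, with the library number beside each point and the mean ± SD (n = 3) to its left. The sh-luc libraries lie between 0.852% and 0.944% and the sh-IUR-5 libraries between 0.557% and 0.582%.

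The genes that overlap or flank the 4 genes are given as values of their own, since the 4 were picked as extreme and nearly any neighbour would fall less. IGIP overlaps no other gene of GENCODE 44. PURA, which encodes a single-stranded nucleic acid binding protein and ends 317 bases before IGIP on the same strand, was at 19.2, 21.6 and 23.3 RPKM in sh-luc and 18.9, 18.2 and 17.1 RPKM in sh-IUR-5. It fell by 0.43 on the log2 scale (SE 0.10, edgeR adjusted p = 0.00158), a call that was lost with total reads only, at -0.24. CYSTM1, on the other side of IGIP, fell by 0.27 (SE 0.08, edgeR adjusted p = 0.0137), and this call was lost with total reads only, at -0.07, and without sh-IUR-5 library 3, at -0.25.

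CLPS shares 139 bases with LHFPL5 on the opposite strand. LHFPL5 encodes a membrane protein of inner ear hair cells and had 0 reads in every library, as did CLPSL1, a colipase-like gene on the other side. SRPK1, which encodes a kinase of splicing factors, is the next gene above and rose by 0.28 (SE 0.08, edgeR adjusted p = 0.00913), from 37.8 ± 3.02 to 52.6 ± 1.73 RPKM (SD, n = 3). Its call was lost without sh-luc library 1, at 0.22, and without sh-IUR-5 library 3, at 0.25. APOBEC2 (chr6:41053202-41064891, plus strand) lies wholly within the span of OARD1 on the opposite strand. OARD1 encodes an ADP-ribose hydrolase and stood at 108 ± 0.699 RPKM and 114 ± 6.14 RPKM (SD, n = 3), and the log2 fold change was -0.11 (SE 0.08, edgeR adjusted p = 0.284). NFYA, a subunit of the factor that binds CCAAT boxes, lies above APOBEC2 and rose by 0.79 (SE 0.16, edgeR adjusted p = 0.000611), from 2.59 ± 0.345 to 5.14 ± 0.528 RPKM (SD, n = 3). TSPO2, on the other side, had 7 reads over all libraries. Whether the reads were counted by strand is not given in the sources used here, so reads of APOBEC2 and OARD1 in shared bases cannot be told apart.

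AGBL2 (chr11:47659591-47715389, minus strand) overlaps no other gene in the annotation. MTCH2, which encodes a mitochondrial outer membrane insertase, lies 16983 bases away and fell by 0.56 at its row with the most reads (SE 0.10, edgeR adjusted p = 0.000183). Its 9 rows ran from -0.56 to 0.03, and 4 of them were lower. FNBP4, which encodes a formin-binding protein and lies 1104 bases from the start of AGBL2, had a log2 fold change of 0.19 (SE 0.08, edgeR adjusted p = 0.0917). It passed the threshold with total reads only, at 0.38, and without sh-IUR-5 library 1, at 0.22. Among the tested neighbours, 4 were thus at negative and 3 at positive values, and none was beyond -0.56. With total reads only OARD1 was on the positive side, at 0.08.

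**Figure D4:**
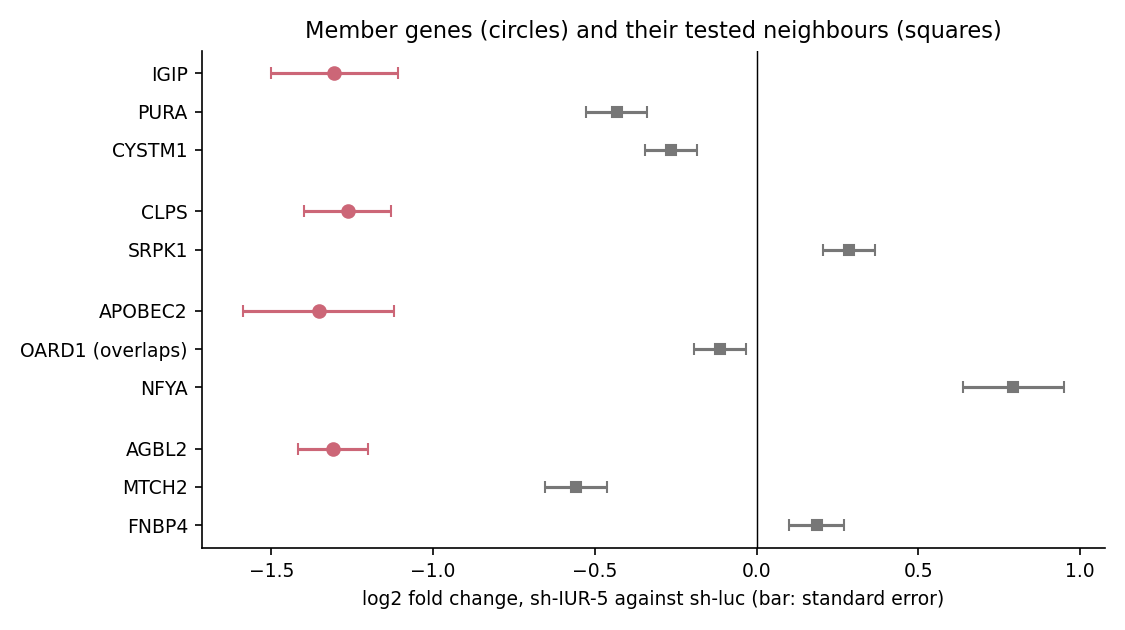
Log2 fold change of sh-IUR-5 against sh-luc, with standard error, of IGIP, CLPS, APOBEC2 and AGBL2 (red circles) and of the tested genes that overlap or flank each (grey squares). The 4 genes lie between -1.35 and -1.26 and their neighbours between -0.56 and 0.79.

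The families of the 4 genes were read from lists of genes with the same biochemical role, leaving out the 4 genes. Among the 8873 genes, 22.4% were higher and 23.5% lower. With total reads only, 3389 were higher and 1120 lower, so directions within these lists hold for TMM scaling unless both are given. Of the 10 other AID/APOBEC deaminases, 5 were tested, 0 were higher and 1 was lower. This was APOBEC3C, an antiviral cytidine deaminase, with a log2 fold change of -0.20 (SE 0.07, edgeR adjusted p = 0.0386) but levels of 165 ± 5.77 and 164 ± 5.25 RPKM (SD, n = 3), and with total reads only it was at -0.01. The call was held without sh-IUR-5 library 2 (-0.24) and lost when any of the other 5 libraries was left out, at -0.17 to -0.21. APOBEC3B was at 33.0 and 36.3 RPKM with a log2 fold change of -0.06, and APOBEC1 and APOBEC4 had 0 reads in every library. The median of the tested deaminases was -0.06, against -0.01 for all genes. With total reads only, 1 deaminase was higher and 0 lower.

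Of 33 genes for enzymes and cofactors that modify tubulin, most of them at its tails, 16 were tested, 4 were higher and 4 lower. SVBP, the partner of the vasohibin carboxypeptidases, fell by 0.52 (SE 0.09, edgeR adjusted p = 0.000242), from 111 to 88.4 RPKM. TPGS1, a subunit of the polyglutamylase complex, fell by 0.50 (SE 0.13, edgeR adjusted p = 0.0058). AGBL5, which removes branch-point glutamates and is the relative of AGBL2 with the most reads, fell by 0.43 (SE 0.09, edgeR adjusted p = 0.00133), from 13.4 ± 1.34 to 11.4 ± 0.245 RPKM (SD, n = 3). MATCAP2 rose by 1.08 (SE 0.19, edgeR adjusted p = 0.00026), TTL, the ligase that restores the terminal tyrosine, rose by 0.75 (SE 0.16, edgeR adjusted p = 0.00134), and TTLL12 rose by 0.35 (SE 0.08, edgeR adjusted p = 0.0033). AGBL1 had 0 reads, and AGBL3 and AGBL4 had 26 and 1. The median of the 16 genes was 0.06. With total reads only, 6 were higher and 2 lower, the latter being SVBP (-0.33) and AGBL5 (-0.23), and TPGS1 lost its call at -0.30.

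Of the 9 genes for fat digestion in the gut lumen, 0 were tested. PNLIP, which encodes the lipase that colipase serves, had 0 reads in every library, as had 6 others. CEL was at 0.771 ± 0.184 and 0.761 ± 0.211 RPKM (SD, n = 3), and CLPSL2 had 6 reads in all. Of 21 genes for signals of IgA switching, 6 were tested, 2 were higher and 0 lower. SMAD4 and SMAD3, which relay TGF-beta signals, rose by 0.60 each, with SE 0.11 and 0.19 and edgeR adjusted p = 0.000259 and 0.0196. The call of SMAD3 was lost without sh-luc library 3, at 0.53, and without sh-IUR-5 library 1, at 0.48. TGFB1 was at 34.5 ± 4.34 and 34.4 ± 0.688 RPKM (SD, n = 3), and the log2 fold change was -0.20 (SE 0.09, edgeR adjusted p = 0.0986), and it passed without sh-luc library 2, at -0.29. The median of the 6 genes was 0.17, and with total reads only 3 were higher and 0 lower.

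**Figure D5:**
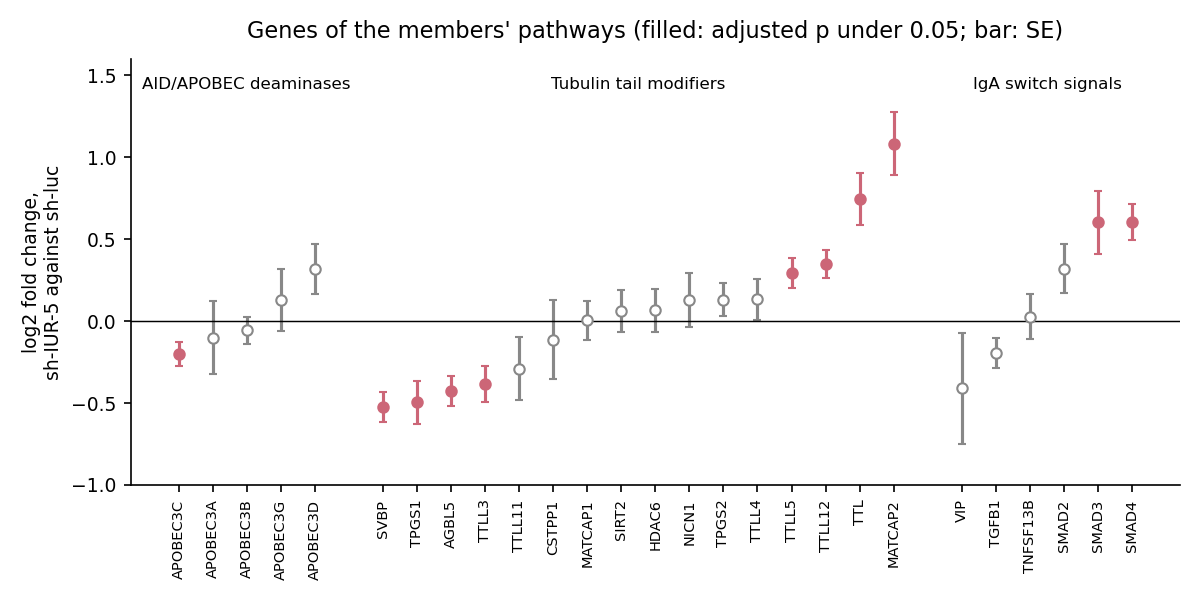
Log2 fold change of sh-IUR-5 against sh-luc, with standard error, of the tested AID/APOBEC deaminases, tubulin modifiers (headed tubulin tail modifiers) and IgA switch signals. Points are filled where the edgeR adjusted p is under 0.05. The values run from -0.52 (SVBP) to 1.08 (MATCAP2).

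The genes whose pattern over the 6 libraries was most like each of the 4 were named by the root mean square distance of centred log2 counts after TMM scaling. CLPS and AGBL2 were among the 3 nearest of each other, at a distance of 0.11. The 3 nearest to CLPS were CD300C (0.07), SHLD1 (0.07) and AGBL2. The 3 nearest to AGBL2 were CLPS, DALRD3 (0.12) and C2orf80 (0.13). IGIP was nearest to SPDYE1 (0.15), DALRD3 (0.19) and SERF1B (0.20), and APOBEC2 to C19orf81 (0.22), KHK (0.23) and CD300C (0.25). These lists were the same on log2(RPKM + 0.1). The likeness rests on 6 libraries and mostly on the difference between the groups. As the 4 were picked by that difference, those with like falls were nearly bound to lie close together.

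The target of the hairpin itself was compared with the 4 transcripts. It is printed from the list of shRNA targets of the study, 5′ to 3′ in the sense of the target, with the match to the guide's seed in capitals.
sh-IUR-5 target: gctagtatcaggtTTAAATAg
This 7-base site occurs in 29.99% of the 19061 main protein-coding transcripts of GENCODE 44. It was found once in IGIP-201 and once in AGBL2-202, and not in CLPS-201, CLPS-203 (the transcript whose row has the reads) or APOBEC2-201. The site for the seed of the passenger strand, held by 7.73% of these transcripts, was found at 2 places in IGIP-201 and at none in the other 4 transcripts searched. The 30 bases around each site are as follows, again with the site in capitals.
IGIP-201, site at transcript base 2535: agcattctgtaTTAAATAtgtgcagttatt
AGBL2-202, site at transcript base 2750: atgagacaaatTTAAATAgaagagacaaag
Over the whole 21-base target, the closest stretch had 8 mismatches in IGIP, APOBEC2 and AGBL2 and 11 in both CLPS transcripts. The longest run of bases shared with the target was 9 in AGBL2-202, 7 in IGIP-201 and APOBEC2-201 and 5 in both CLPS transcripts. The effect of these matches on the levels was not tested.

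Start regions of 3 of the genes, from 250 bases before to 50 bases after the RefSeq start, are shown because these genes fell by similar amounts. They are from RefSeq, build GRCh38.p14, 5′ to 3′ on the gene's strand, and CLPS has no entry in the table used. Capitals mark matches, on either strand, to the TATA box (letters TATAAA), the CCAAT box (the letters of its name), the GATA factor motif (letters AGATAA), the STAT motif (letters TTCNNNGAA) and the GC box (letters GGGCGG).
IGIP, chr5:140125687-140125986, plus strand: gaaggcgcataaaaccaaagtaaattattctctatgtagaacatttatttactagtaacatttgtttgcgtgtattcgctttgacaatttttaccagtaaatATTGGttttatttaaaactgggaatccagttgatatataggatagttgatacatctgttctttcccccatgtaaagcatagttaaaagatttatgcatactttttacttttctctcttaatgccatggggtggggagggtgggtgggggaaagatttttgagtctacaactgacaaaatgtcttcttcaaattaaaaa
APOBEC2, chr6:41052952-41053251, plus strand: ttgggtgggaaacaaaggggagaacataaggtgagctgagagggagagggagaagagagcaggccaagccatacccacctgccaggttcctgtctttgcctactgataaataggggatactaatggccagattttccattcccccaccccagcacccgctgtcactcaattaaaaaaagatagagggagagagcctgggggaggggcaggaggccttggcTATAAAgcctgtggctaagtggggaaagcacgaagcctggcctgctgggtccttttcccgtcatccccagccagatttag
AGBL2, chr11:47715320-47715619, minus strand: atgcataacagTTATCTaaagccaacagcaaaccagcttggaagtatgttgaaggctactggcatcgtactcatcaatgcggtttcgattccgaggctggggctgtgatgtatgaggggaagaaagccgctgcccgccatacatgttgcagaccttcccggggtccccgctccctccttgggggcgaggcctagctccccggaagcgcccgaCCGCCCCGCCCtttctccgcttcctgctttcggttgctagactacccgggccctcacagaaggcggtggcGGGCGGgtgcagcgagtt
None of these motifs was found in more than 1 of the 3 windows. IGIP held a CCAAT box on the minus strand, found in 35.7% of 27305 promoters of the same length, APOBEC2 a TATA box (11.95%), and AGBL2 a GATA match on the minus strand (10.5%) and GC boxes (44.6%), of which the pair before the start overlaps by 1 base. None held the STAT letters, which 7.88% of promoters do. The E-box CANNTG, left in lower case, was found at 4 places in IGIP, at 1 in APOBEC2 and in 68.9% of promoters. The IGIP window is 33.0% G and C, with only 2.77% of promoters lower, against 54.3% for APOBEC2 and 60.3% for AGBL2. A match or its absence describes these letters only.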

How the data were processed

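Per the labels and the study's methods, the authors trimmed adaptors, masked reads of low complexity or quality and aligned the rest to hg38. The submitters' processing notes name CASAVA 1.8, Trimmomatic 0.32, Bowtie2 2.1.0 and SAMtools 0.1.19. The authors deposited read counts per RefSeq protein accession without normalization, and RPKM values, which were recomputed from reads, Length and library totals without a difference. A second deposited table holds the authors' own comparison (pooled values, fold changes and p-values) and was not used.

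edgeR 4.0.16 (R 4.3.3; TMM, quasi-likelihood test, two-sided, Benjamini-Hochberg) compared 3 sh-IUR-5 with 3 sh-luc libraries on the 38204 rows with a mean of at least 1 RPKM, at a threshold of 0.05, and was tested on simulated data. Symbols matched 64.7% of rows (RefSeq GRCh38.p14). Groups came from the sample titles. Alternatives were DESeq2 1.42.0, limma 3.58.1 on log2(RPKM + 0.1), other scaling and filters, a replicate block, and each library left out.

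The genes and lists were chosen with earlier results of these data known. Named besides these are overlapping and flanking genes, neighbours in the order of fall, the 3 most alike, and from each list up to 3 per direction past the threshold and the 2 with the highest level. Copies of the CLPS exon were sought in coding sequences (GENCODE 44). The genes named for their copies and the relatives with few reads were chosen after their values were seen. Some sequences and the values of some genes are not reported here.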

Additional observations from a re-analysis of the deposited data

How the results depend on the processing

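The falls of IGIP, CLPS, APOBEC2 and AGBL2 kept their sign under all 19 alternatives, which their choice by a large fall made nearly certain. IGIP moved by less than its spread between libraries under each. CLPS was at -1.07 with total reads only and at -1.07, -1.002 and -1.08 in limma on log2(RPKM + 0.1), log2(RPKM + 1) and log2(RPKM + 0.01). AGBL2 was at -1.12, and then -1.08, -0.85 and -1.11, and APOBEC2 was at -0.82 on log2(RPKM + 1). A pseudocount of 1 understates the change of rows at such levels. Leaving out 1 library at a time gave -1.495 to -1.14 for IGIP, -1.33 to -1.23 for CLPS, -1.57 to -1.15 for APOBEC2 and -1.38 to -1.23 for AGBL2, and 11215 to 13582 rows past the threshold, against 14256 with all libraries. With 1 row per gene or reads summed per gene, fewer rows were tested, and 3995 and 4407 passed. The rows with a copy of the CLPS exon were at a median of -0.80 to -0.88 without 1 library and of -0.66 with total reads only.

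Among the deaminases 0 genes passed with 1 row per gene and with libraries 2 and 3 summed, and 0 to 1 without 1 library. Among the IgA switch signals 1 passed in DESeq2, 4 without a filter and 4 with a minimum of 0.1 RPKM, and 1 to 3 without 1 library. The cause was not tested. The other counts stayed within 1.5 times.

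Same-numbered libraries of the groups correlated at 0.31, 0.09 and -0.01 in their deviations, so the numbers were not read as pairs. The library names put libraries 2 and 3 of each group in 1 series. The 5 pairs of libraries within a series correlated at -0.01 to 0.31, the 4 across series at -0.27 to -0.07. The deviations were taken from each group's own mean, so these correlations are tied to each other and are not separate evidence of a series. With the label series as a term 17924 rows passed, and with a replicate block 16831. Under both, the IgA switch signals went from 2 to 3 with TGFB1, and FNBP4 passed at 0.19. With libraries 2 and 3 summed, 10205 rows passed, TGFB1 did not (-0.22, adjusted p = 0.141 in edgeR), and CYSTM1 at -0.26 and SRPK1 at 0.30 no longer passed. IGIP, CLPS, APOBEC2 and AGBL2 were at -1.31, -1.27, -1.36 and -1.31 with the series term, at -1.32, -1.26, -1.33 and -1.34 with the sums, and at -1.31, -1.27, -1.37 and -1.31 with the block. Depth limits APOBEC2 most, with 15 to 54 reads in a library.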
